A study of Mus musculus with 12 samples.

Results

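The comparison described here is the difference between the tumor-against-spleen effect in Ly6C libraries and the same effect in Ly6G libraries, an interaction of tissue and label. For each gene it was computed on log2(FPKM + 1) as tumor minus spleen in Ly6C, less tumor minus spleen in Ly6G, and it equals the Ly6C minus Ly6G difference in tumor less that in spleen. A positive value therefore means a higher, or less negative, tumor effect in Ly6C, and a negative value a higher, or less negative, tumor effect in Ly6G. FPKM scales a gene's sequenced fragments to its length and to the library's total. Of 54674 entries in the deposited matrix, 13610 carried an Ensembl gene identifier and reached 1 FPKM in at least 3 of the 12 libraries, and all of these were tested. The values were from bulk RNA sequencing of mouse cells in 4 groups of 3 libraries, which combine the labels Ly6C and Ly6G with spleen and tumor. In the series' own terms these were myeloid-derived suppressor cells of the monocytic (M-MDSC) and polymorphonuclear (PMN-MDSC) kind from spleen and tumor. The labels gave tissue, antigen name and replicate number, and no strain, age, genotype, treatment, tumor model, sorting gate or animal. Nothing says that the 3 libraries of a group came from separate animals, so the p-values measure the spread between these libraries, which may be technical.

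Myeloid-derived suppressor cells are immature monocytes and neutrophils that leave the bone marrow during tumor growth, collect in the spleen and enter the tumor. Ly6C is a surface antigen carried at a high level by inflammatory monocytes, and Ly6G is a surface antigen of mouse neutrophils. Monocytes remain transcriptionally flexible after entry into tissue, where signals through colony-stimulating factor receptors, NF-kappaB and MAP kinases change their cytokine output, whereas neutrophils carry much of their effector protein in granules made earlier in the marrow.

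The labels were checked against defining genes. Ly6g was measured at 157, 131 and 209 FPKM in Ly6C spleen and 591, 644 and 717 FPKM in Ly6G spleen, and at 11.8 to 13.8 FPKM in Ly6C tumor and 31.5 to 54.1 FPKM in Ly6G tumor. Ly6G libraries were thus above Ly6C libraries in both tissues without overlap. The Ly6C antigen is encoded by Ly6c1 and Ly6c2. Ly6c1 was higher in Ly6C than in Ly6G libraries without overlap, at 13.1 to 15.4 against 6.47 to 10.1 FPKM in spleen (limma adjusted p = 0.00911) and at 67.5 to 86.0 against 44.8 to 64.7 FPKM in tumor, where the difference did not pass (adjusted p = 0.0891). Ly6c2 overlapped between the labels in spleen (223 to 272 against 170 to 237 FPKM) and in tumor (6.35 to 8.16 against 5.31 to 7.8 FPKM). The 14 neutrophil markers summed to 67900 to 107000 FPKM in Ly6C spleen and 130000 to 166000 in Ly6G spleen. In spleen 6 of them were higher in Ly6G, against 8.59% of all genes, and Cd177 overlapped (1080 to 1740 against 1140 to 1690 FPKM). Of 14 monocyte markers, 6 were higher in Ly6C spleen and 1 in Ly6G spleen, against 22.1% and 8.59%. Ly6C spleen libraries thus held neutrophil marker RNA, and the labels are not read as pure cell types. The 20 pan-leukocyte genes summed to 5970 to 8770 FPKM in the 6 spleen libraries and to 260 to 967 FPKM in the 6 tumor libraries. Krt8, an epithelial keratin, lay between 0 and 0.263 FPKM in spleen and between 356 and 770 FPKM in tumor. The tumor libraries of both labels thus had lower leukocyte sums and held keratin RNA, and every value below is a value of the library as labelled. In bulk samples, fewer cells of a type and less RNA per cell cannot be told apart.

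**Figure D1:**
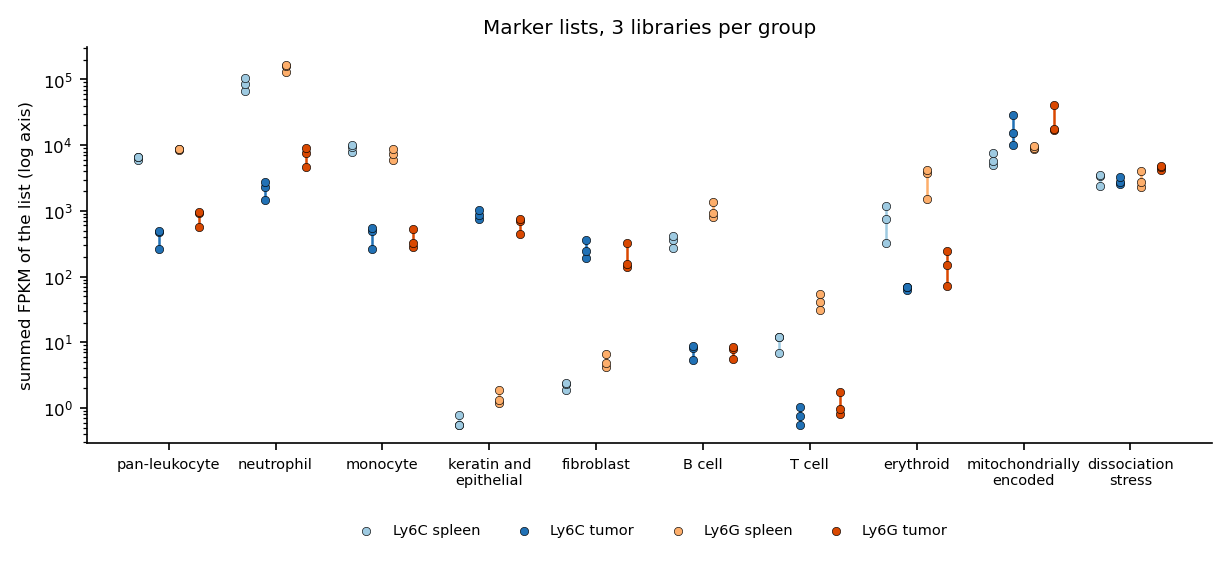
Summed FPKM (log axis) of 10 marker lists in the 3 libraries of each group, with a line from the lowest to the highest library. Pan-leukocyte, neutrophil and monocyte sums were lower in every tumor library than in any spleen library, and B cell, T cell and erythroid sums were highest in Ly6G spleen.

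Tissue effects passed for 76.7% of all genes in Ly6C and 76.2% in Ly6G. The interaction passed for 2972 of 13610 genes (21.8%, limma, Benjamini-Hochberg adjusted p under 0.05), positive for 820 (6.02%) and negative for 2152 (15.8%). An unadjusted p under 0.05 was reached by 4868 genes. A difference of at least 2-fold was found for 1252 of the passing genes, of which 294 were positive and 958 negative. The lean to negative values depended on how libraries were scaled to each other. Passing genes were 27.6% positive on the deposited scale, 5.74% on the TPM scale, where all libraries have the same sum, 54.1% by median-of-ratios and 51.9% after quantile normalization. The median interaction over all genes moved from -0.10 as deposited to -0.39, 0.04 and 0.06 under these scalings. When libraries were matched on the geometric mean of 20 pan-leukocyte genes (pan-leukocyte scale), the median moved to 0.86 and 97.5% of passing genes were positive. Counts of each direction are for this reason read beside the count for all genes, and genes are named mostly from the 1512 (11.1%) that passed with the same sign on the deposited, TPM, median-of-ratios and quantile scales. These were 267 positive genes (1.96%) and 1245 negative genes (9.15%), and they are called scale-stable below. The term does not cover the pan-leukocyte scale, on which 214 of the 267 positive and 42 of the 1245 negative genes passed with the same sign.

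**Figure D2:**
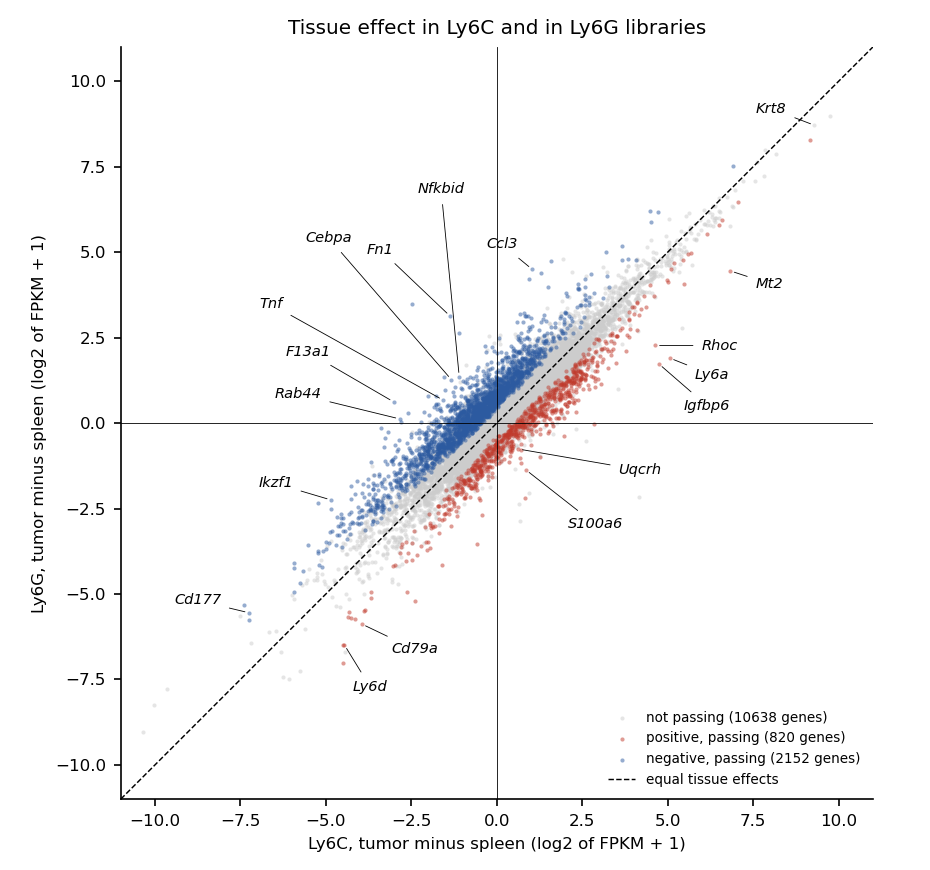
Tumor minus spleen in Ly6C libraries (horizontal) against the same in Ly6G libraries (vertical), in log2 of FPKM + 1, 1 point per gene. The 820 positive genes lie below the dashed line of equal effects and the 2152 negative genes above it.

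Most passing genes moved the same way in both labels or in 1 label alone. Both tissue effects passed in the same direction for 1482 of the 2972 genes, that of Ly6C alone for 657, that of Ly6G alone for 584, and neither for 4. Opposite effects that passed in both labels were found for 245 genes, of which 211 fell in Ly6C and rose in Ly6G and 34 did the reverse. The pan-leukocyte scale left 6 such genes. As a difference between labels, the interaction was placed more often in spleen than in tumor. Of the 2152 negative genes, 61.7% differed between the labels in spleen alone and 20.4% in tumor alone, and of the 820 positive genes 49.0% did so in spleen alone and 25.5% in tumor alone. Over all genes tested, 30.6% differed between the labels in spleen and 14.5% in tumor.

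**Figure D3:**
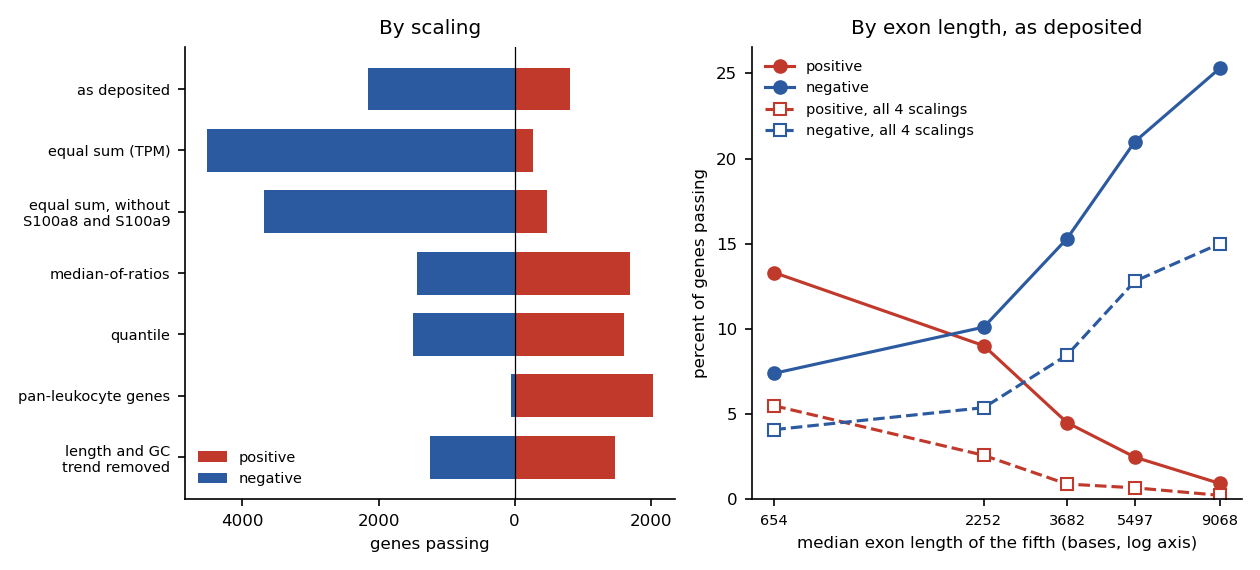
Left, genes passing in each direction under 7 ways of scaling the libraries. Right, percent of genes passing in each direction in 5 equal groups of genes by exon length, where the positive share falls from 13.3% to 0.919% and the negative share rises from 7.39% to 25.3%.

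The myeloid lineage transcription factors that passed had higher tissue effects in Ly6G than in Ly6C. Of 24 factors tested, 13 passed in limma and all 13 were negative, against 15.8% of all genes. Their median was -1.07 on the deposited scale, where the median of all genes was -0.10, and -0.03 on the pan-leukocyte scale, where it was 0.86 and 1 factor passed. Without any 1 library, 9 to 14 were negative, and without replicate 3 of both tumor groups 5 were. With median-of-ratios factors 8 were negative, and on the TPM scale 16. Cebpa, a factor required for the granulocyte and monocyte lineage, was measured at 50, 62.8 and 19 FPKM in Ly6C spleen and at 16.1, 15.5 and 13.4 FPKM in Ly6C tumor. It was at 5.93, 4.64 and 7.99 FPKM in Ly6G spleen and at 19.1, 15 and 14.3 FPKM in Ly6G tumor. The Ly6C groups did not overlap, the Ly6G groups did not overlap, and the tumor groups overlapped each other. Cebpa fell by 1.33 in Ly6C and rose by 1.27 in Ly6G, an interaction of -2.60 ± 0.49 (log2, SE of the limma model, adjusted p = 0.00428). Nr4a1, an orphan nuclear receptor needed for patrolling monocytes and also an immediate-early gene, had an interaction of -2.91 ± 0.59 (adjusted p = 0.00645). It was at 60.1 to 178 FPKM in Ly6C spleen, 26.7 to 46.2 in Ly6C tumor, 20.9 to 64.9 in Ly6G spleen and 81.0 to 110.0 in Ly6G tumor. The other scale-stable factors of the list were Klf4 (-2.57), a monocyte factor, Cebpe (-2.08), which drives late granulocyte genes, Zeb2 (-1.49), Bhlhe40 (-1.30) and Runx1 (-1.11). Spi1, which encodes PU.1, the master factor of myeloid cells, passed on the deposited scale (-1.59, adjusted p = 0.0486) and was not scale-stable.

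The receptors for myeloid growth factors that passed on the deposited scale were negative too. Of 13 tested, 4 passed in limma, all negative, against 15.8% of all genes, with a median of -0.95 (-0.12 on the pan-leukocyte scale, where 2 were negative and 1 positive). Csf2rb, the shared signaling chain of the GM-CSF, interleukin-3 and interleukin-5 receptors, was at 21.5, 22.4 and 45.0 FPKM in Ly6C spleen and at 4.24, 1.79 and 3.81 FPKM in Ly6C tumor. In Ly6G it was at 12.6, 10.4 and 7.56 FPKM in spleen and at 14.9, 4.29 and 15.2 FPKM in tumor. The 2 Ly6C groups did not overlap and the 2 Ly6G groups did. The interaction was -2.82 ± 0.61 (adjusted p = 0.00855) and stayed negative and passing on the pan-leukocyte scale (-1.89). Csf2rb has a near-identical neighbor, Csf2rb2, between which reads can be split wrongly. Csf2ra, the ligand-binding chain for GM-CSF, fell in Ly6C from 569 to 851 FPKM to 41.9 to 90.9 FPKM and had an interaction of -2.59 ± 0.39 (adjusted p = 0.00147). Il3ra (-1.58) and Il6ra (-1.10), receptors for interleukin-3 and interleukin-6, were the others that passed. The receptors for M-CSF (Csf1r, -0.75, adjusted p = 0.438) and G-CSF (Csf3r, -0.79, adjusted p = 0.197) did not pass.

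Ccl3 and Tnf had the lowest interaction of the tested chemokine and cytokine genes. Ccl3, a chemokine that attracts monocytes and T cells (chr11:83647844-83649355, GRCm38, minus strand), was at 17.3, 24.5 and 13.3 FPKM in Ly6C spleen and at 45.5, 27.8 and 41.7 FPKM in Ly6C tumor. It was at 5.34, 3.95 and 6.94 FPKM in Ly6G spleen and at 116, 164 and 150 FPKM in Ly6G tumor. The 4 Ccl3 groups did not overlap, and their order was Ly6G spleen, Ly6C spleen, Ly6C tumor, Ly6G tumor. Ccl3 rose by 1.03 in Ly6C and by 4.50 in Ly6G, an interaction of -3.47 ± 0.36 (adjusted p = 0.000371) that passed under each scaling tried, with -2.18 on the pan-leukocyte scale. Tnf, the cytokine tumor necrosis factor, was at 24.3, 17.2 and 23.7 FPKM in Ly6C spleen, 6.94, 6.11 and 6.66 in Ly6C tumor, 16.2, 16.2 and 15.3 in Ly6G spleen and 28.6, 27.7 and 21.9 in Ly6G tumor. It fell by 1.57 in Ly6C and rose by 0.67 in Ly6G, without overlap between tissues in either label. Its interaction of -2.25 ± 0.20 had the lowest adjusted p of the named genes (0.000186). On the pan-leukocyte scale the Tnf value was -1.31 and did not pass. Cxcl3, a neutrophil-attracting chemokine, and Il1a, an alarmin cytokine, rose in both labels and more in Ly6G (-1.49 and -1.21). Chemokines as a list had no common direction. Of 18 tested, 4 were positive and 3 negative, against 6.02% and 15.8% of all genes, with a median of 0.05. The positive members were Ccl24 (1.57), an eosinophil attractant, Ppbp (1.52), a platelet chemokine, Ccl5 (1.27) and Ccl7 (0.66). The positive count was 1 without Ly6C spleen replicate 3, Ly6C tumor replicate 1 or 3, or Ly6G tumor replicate 1 or 2, and 2 without Ly6C spleen replicate 1 or any Ly6G spleen library. Of 17 cytokine genes, 4 were negative and 1 positive, against 15.8% and 6.02% of all genes. Their median was -0.21, and 0.43 on the pan-leukocyte scale. Il1b, the inflammasome-processed cytokine, was the positive one at 1.67 ± 0.55, passed at the edge of the threshold, and passed in 4 of the 12 fits that left out a library. It was at 21.8 to 48.9 FPKM in Ly6C spleen, 206 to 331 in Ly6C tumor, 263 to 683 in Ly6G spleen and 720 to 1250.0 in Ly6G tumor.

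Genes of the NF-kappaB system that passed in limma on the deposited scale were negative. These genes encode the DNA-binding subunits, the inhibitors that hold them in the cytoplasm and the kinases that release them. Of 19 tested, 9 were negative, against 15.8% of all genes. Their median of -0.58 turned to 0.37 on the pan-leukocyte scale, where 1 was negative. The count was 4 without Ly6C tumor replicate 3, Ly6G spleen replicate 1, Ly6G spleen replicate 2 or Ly6G tumor replicate 2. Nfkbid, a nuclear inhibitor protein that modulates p50, was at 43.0, 37.7 and 34.3 FPKM in Ly6C spleen and at 22, 13.8 and 17 FPKM in Ly6C tumor. It was at 24.6, 18 and 38.7 FPKM in Ly6G spleen and at 59.5, 79.1 and 66.6 FPKM in Ly6G tumor. Neither label overlapped between tissues, and the direction was opposite. The interaction was -2.46 ± 0.35 (adjusted p = 0.00118) and passed on the pan-leukocyte scale (-1.45). Tnfaip3, the ubiquitin-editing feedback inhibitor A20, rose in both labels and more in Ly6G (-1.80), and the kinase gene Ikbke had an interaction of -1.64.

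The study's title concerns MAPK signaling inhibitors. Kinase genes of the MAPK cascade were mostly not passing. Of 33 tested, 8 were negative and 2 positive, against 15.8% and 6.02% of all genes. The median of -0.34 became 0.74 on the pan-leukocyte scale, where 0 were negative and 1 positive. The ERK gene Mapk3 (-0.06, adjusted p = 0.89) and the p38 gene Mapk14 (-0.65, adjusted p = 0.161) did not pass. Mapkapk2, the kinase that acts below p38 and stabilizes cytokine mRNAs, was the lowest member. It was at 180.0, 178 and 133 FPKM in Ly6C spleen, 76.7, 64.0 and 65.5 in Ly6C tumor, 78.0, 69.4 and 85.6 in Ly6G spleen and 104, 117 and 129 in Ly6G tumor. Mapkapk2 fell by 1.23 in Ly6C and rose by 0.58 in Ly6G (-1.81 ± 0.21, adjusted p = 0.000619), without overlap between tissues in either label. On the pan-leukocyte scale its value was -0.79 and did not pass. The JNK and p38 activator Map3k5 (-1.65), Mapkapk3 (-1.22), the NF-kappaB and ERK activating kinase Map3k8 (-0.94), the adaptor Shc1 (-0.93) and Map2k3 (-0.80) were also scale-stable and negative. The p38 isoform Mapk11 (0.74) and Nras (0.63) were positive on the deposited scale and not scale-stable, and leaving out Ly6C tumor replicate 2 left neither. With 1 other library left out, 1 or 2 MAPK genes were positive. Among 34 ERK response genes and phosphatases, 7 were negative and 1 positive, against 15.8% and 6.02% of all genes. Their median was -0.28, and 0.74 on the pan-leukocyte scale, where 0 were negative and 1 positive. Jun, an AP-1 subunit, rose from 215 to 404 FPKM to 468 to 653 FPKM in Ly6C and from 77.2 to 123 FPKM to 611 to 671 FPKM in Ly6G. The tumor groups overlapped and the spleen groups did not, and the interaction was -1.79 ± 0.33 (adjusted p = 0.00399). Ccnd1, cyclin D1, was positive at 0.87 (adjusted p = 0.0486) and passed in 3 of 12 fits without 1 library.

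Genes that cell dissociation is known to induce were read as a further list, which shares members with the lists above. Of 12 such genes, 5 passed in limma, all negative, against 15.8% of all genes, namely Nr4a1, Atf3, Jun, Zfp36 and Dusp1. Jun and Dusp1 were also counted among the ERK response genes, and Nr4a1 among the lineage factors. The list's median was -1.12 (0.02 on the pan-leukocyte scale). The count was 3 without Ly6C tumor replicate 2 or 3, Ly6G spleen replicate 1, or Ly6G tumor replicate 1 or 2. Their summed level was 2430 to 3490 FPKM in Ly6C spleen, 2570 to 3240 in Ly6C tumor, 2330 to 4020 in Ly6G spleen and 4190 to 4810 in Ly6G tumor, where it stood apart. Mitochondrially encoded RNA took 3.07% to 7.84% of FPKM in Ly6C tumor and 5.41% to 11.9% in Ly6G tumor. In spleen it took 1.68% to 2.5% in Ly6C and 2.48% to 2.87% in Ly6G, below every tumor library. The interaction passed in limma for 0 of 13 mitochondrial genes, against 21.8% of all genes, with 0 at an unadjusted p under 0.05. The part of handling and RNA quality in the results was not tested. Without both libraries of the highest mitochondrial share (replicate 3 of each tumor group), 1417 genes passed, 290 positive and 1127 negative.

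**Figure D4:**
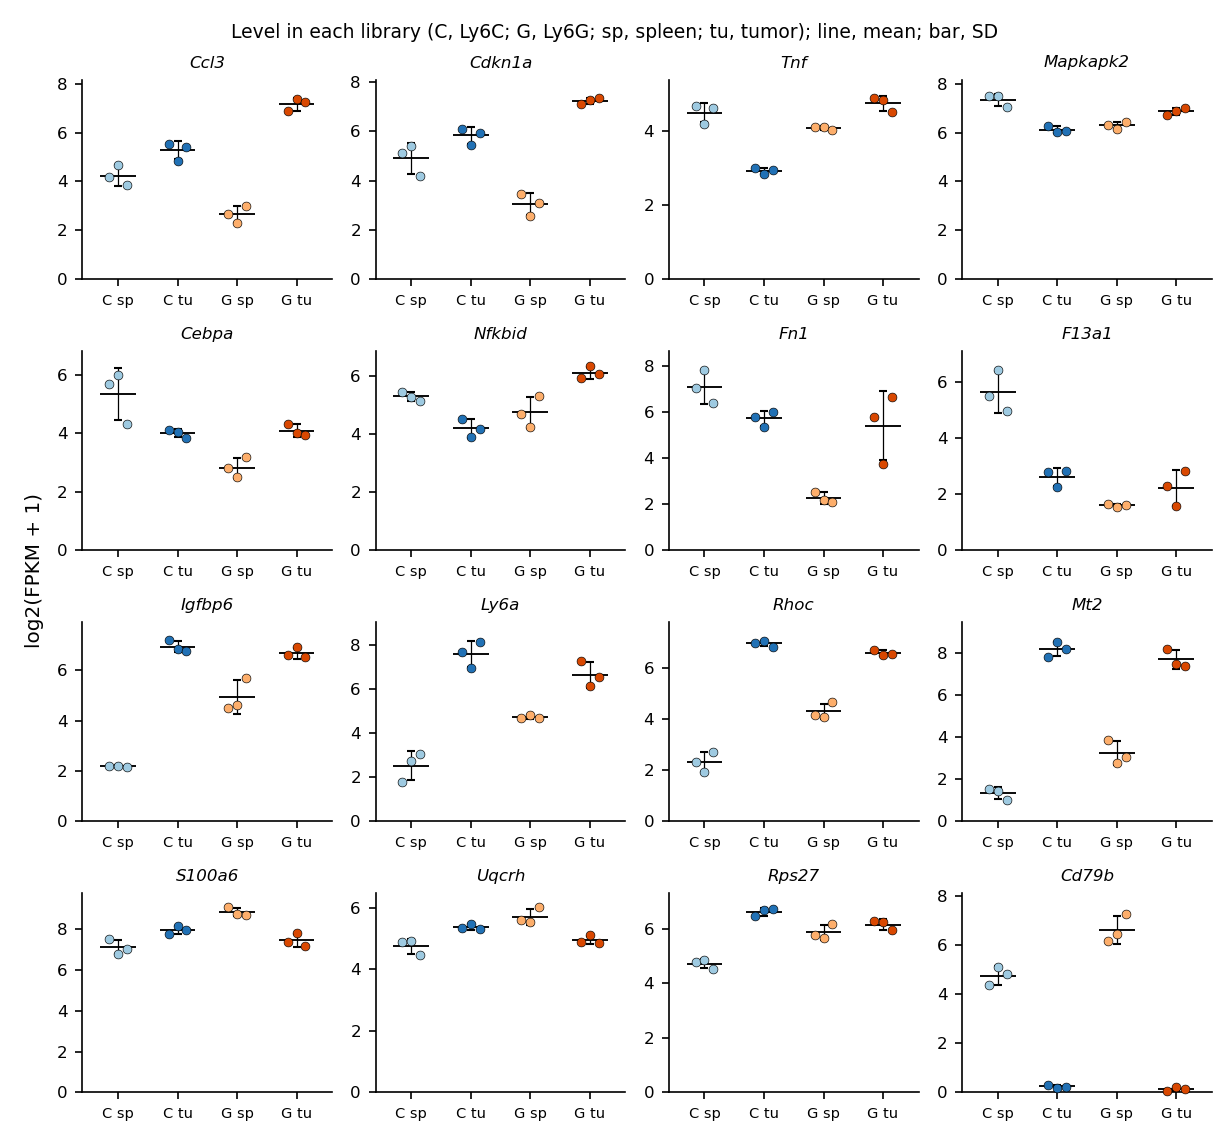
Level (log2 of FPKM + 1) in each library of 16 named genes, with the mean and SD of 3 libraries per group. In the upper 2 rows the tumor effect is lower in Ly6C than in Ly6G, and in the lower 2 rows it is higher in Ly6C.

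Of 14 monocyte markers, 5 passed in limma, all negative, against 15.8% of all genes (median -0.66, and 0.34 on the pan-leukocyte scale), with 3 negative without Ly6C tumor replicate 2, Ly6G spleen replicate 1, Ly6G spleen replicate 2 or Ly6G tumor replicate 3. Fn1, fibronectin, which monocytes and many stromal cells make (chr1:71585520-71653200, minus strand), was at 131, 226 and 81.9 FPKM in Ly6C spleen and at 54.0, 39.9 and 62.9 FPKM in Ly6C tumor. It was at 4.79, 3.45 and 3.26 FPKM in Ly6G spleen and at 54.3, 12.5 and 98.8 FPKM in Ly6G tumor. The tumor groups overlapped and the spleen groups lay far apart. Fn1 rose by 3.13 in Ly6G, did not pass in Ly6C (-1.37, adjusted p = 0.051), and had an interaction of -4.50 ± 0.83 (adjusted p = 0.00393). F13a1, a coagulation factor subunit made by monocytes, fell by 3.02 in Ly6C from 30.1 to 86.6 FPKM to 3.75 to 6.12 FPKM, while Ly6G stayed between 1.93 and 6.1 FPKM in both tissues (-3.64 ± 0.52, adjusted p = 0.00119). Both genes passed on the pan-leukocyte scale. The summed monocyte markers were 7970 to 10100.0 FPKM in Ly6C spleen and 5880 to 8820 FPKM in Ly6G spleen, which overlapped, and 266 to 548 and 280.0 to 528 FPKM in the tumor groups.

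All 20 pan-leukocyte genes fell in both labels, against 30.5% of all genes in Ly6C and 24.7% in Ly6G. The interaction passed in limma for 8, all negative, against 15.8% of all genes, with a median of -1.07. On the pan-leukocyte scale the median was -0.10, a value largely fixed by construction, since these 20 genes set that scale. The count was 4 without Ly6G tumor replicate 3 and 5 without Ly6G spleen replicate 1 or Ly6G tumor replicate 2. Ikzf1, the lymphoid and myeloid factor Ikaros, was lowest. It was at 50.3 to 95.6 FPKM in Ly6C spleen, 0.847 to 1.73 in Ly6C tumor, 20.4 to 26.1 in Ly6G spleen and 2.79 to 4.68 in Ly6G tumor (-2.59 ± 0.35, adjusted p = 0.000982). None of the 4 groups overlapped. Ptprc, the pan-leukocyte antigen CD45, was at 26.3, 37.2 and 38.3 FPKM in Ly6C spleen and 34.8, 52.5 and 35.1 FPKM in Ly6G spleen, which overlapped. In tumor it was at 4.1, 2.59 and 4.59 FPKM in Ly6C and 7.66, 14 and 13.9 FPKM in Ly6G, which did not. Its interaction was -1.16 ± 0.37 (adjusted p = 0.0424), it passed in 4 of 12 fits that left out a library, and it was not scale-stable.

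Most tested members of 4 lists of phagocyte effector genes fell in both labels, and the interactions that passed in these lists were negative. The fall passed for 9 of 9 primary granule genes in each label, for 17 of 17 secondary and tertiary granule genes in Ly6C and 16 in Ly6G, for 6 of 7 NADPH oxidase genes in each label, and for 21 of 22 Fc receptor and ITAM signaling genes in Ly6C and 17 in Ly6G. Of all genes 30.5% fell in Ly6C and 24.7% in Ly6G. Negative interactions, against 15.8% of all genes, were found for 2 of 9 primary granule genes, 4 of 17 secondary and tertiary granule genes, 2 of 7 NADPH oxidase genes and 6 of 22 Fc receptor and ITAM signaling genes, with medians between -0.94 and -0.76. On the pan-leukocyte scale these medians lay between -0.35 and 0.11 and Ncf1 and 1 granule gene passed, the latter as positive. Without 1 library, 1 to 3 primary granule, 2 to 6 secondary and tertiary granule and 1 to 4 oxidase genes were negative. The lowest values came without Ly6C spleen replicate 3, Ly6C tumor replicate 2 or 3, or Ly6G tumor replicate 2 for primary granules. They came without Ly6C spleen replicate 1 or 3, Ly6C tumor replicate 2, Ly6G spleen replicate 3 or Ly6G tumor replicate 3 for the later granules, and without Ly6G spleen replicate 3 or Ly6G tumor replicate 2 or 3 for the oxidase. The highest oxidase count came without Ly6G tumor replicate 1. Ncf1, the p47 organizer subunit of the oxidase, was at 306, 178 and 299 FPKM in Ly6C spleen, 9.66, 6.02 and 8.03 in Ly6C tumor, 188, 213 and 110.0 in Ly6G spleen and 26.0, 31.0 and 27.1 in Ly6G tumor. The spleen groups overlapped, the tumor groups did not, and the interaction was -2.35 ± 0.38 (adjusted p = 0.00212). Cd177, a neutrophil surface glycoprotein, fell by 7.25 in Ly6C and by 5.55 in Ly6G (-1.69 ± 0.40, adjusted p = 0.0126). Syk, the tyrosine kinase that reads ITAM motifs, had an interaction of -1.60, and Prtn3, proteinase 3, -1.21. Rab44, a large Rab GTPase of granulocytes, fell by 2.84 in Ly6C and stayed at 45.4 to 70.8 FPKM in both Ly6G groups (-2.97 ± 0.32, adjusted p = 0.000405). S100a8 and S100a9, the neutrophil alarmin pair, fell by more than 4 log2 units in both labels, and their interactions did not pass (-0.75 and -0.67). Of 19 adhesion genes, 6 were negative and 1 positive, against 15.8% and 6.02% of all genes. The integrin gene Itgal (-1.88) led the negative ones, and Vcam1 was the positive one. The list's median was -0.73 (0.04 on the pan-leukocyte scale), and 3 were negative without Ly6C tumor replicate 1, Ly6G spleen replicate 1 or Ly6G tumor replicate 3.

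Several other processes held negative genes. Cdkn1a, which encodes the cell cycle inhibitor p21, was at 33.4, 40.9 and 17.4 FPKM in Ly6C spleen and at 67.6, 42.5 and 60.5 FPKM in Ly6C tumor. It was at 9.92, 4.89 and 7.53 FPKM in Ly6G spleen and at 136, 153 and 162 FPKM in Ly6G tumor. All 4 groups were apart, and the interaction was -3.27 ± 0.43 (adjusted p = 0.000855). Of 31 cell cycle genes, 14 were negative and 2 positive, against 15.8% and 6.02% of all genes. Their median of -0.60 became 0.55 on the pan-leukocyte scale. The positive count was 0 without Ly6C spleen replicate 1, any 1 Ly6C tumor library, or Ly6G tumor replicate 2 or 3, and 1 without Ly6C spleen replicate 3, Ly6G spleen replicate 3 or Ly6G tumor replicate 1. The negative count was 5 with median-of-ratios factors. It was 9 without Ly6C tumor replicate 1 or 2 and 8 without Ly6G tumor replicate 3. In spleen 28 of these 31 genes were higher in Ly6C, against 22.1% of all genes, and in tumor 7 were higher and 1 lower, against 5.8% and 8.7%. Most of them are proliferation genes, such as Mki67 (30.2 to 33.3 FPKM in Ly6C spleen, 13.7 to 20.9 in Ly6G spleen, 4.53 to 6.84 in tumor; interaction -0.75), while Cdkn1a restrains the cycle.

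Of 20 genes of the unfolded protein response, 7 passed in limma, all negative, against 15.8% of all genes (median -0.24, and 0.81 on the pan-leukocyte scale). They included the factor Xbp1 (-1.26), the sensor Ern1 (-1.10) and the chaperone partner Sdf2l1 (-1.53). In spleen, 11 of the 20 were higher in Ly6C, against 22.1% of all genes. All 3 passing BCL2 family genes encode death-promoting BH3 proteins, Pmaip1 (-1.99), Bbc3 (-1.56) and Bcl2l11 (-1.15), out of 15 tested (list median -0.40, and 0.59 on the pan-leukocyte scale). That count of 3 in 15 is near the 15.8% of all genes that were negative, and so is the count in the TGF-beta system. There 4 of 22 were negative, with the repressor Ski at -1.95 and Tgfb1 at -1.42, and 1, Id1, was positive (1.09). The TGF-beta median of -0.28 was 0.74 on the pan-leukocyte scale, and 2 were negative without Ly6C tumor replicate 2. Of 24 glycolysis genes, 5 were negative and 3 positive on the deposited scale, against 15.8% and 6.02% of all genes. The counts were 9 and 1 on the TPM scale, and 0 and 8 on the pan-leukocyte scale. The first-step kinases Hk3 (-1.89), Hk2 (-1.27) and Hk1 (-1.07) were negative, and the aldolase gene Aldoc (0.87) was positive. The positive glycolysis count was 1 without Ly6C spleen replicate 3, any Ly6C tumor library, Ly6G spleen replicate 1 or Ly6G tumor replicate 2. Of 20 hypoxia targets, 4 passed in limma, all negative, namely Pfkfb3 (-1.58), Ero1l (-1.40), Vegfa (-1.24) and Egln1 (-0.88), a share near the 15.8% of all genes, while the list's median was 0.21. On the pan-leukocyte scale 7 were positive and 0 negative, with a median of 1.19. Up to 2 were positive when 1 library was left out, the 2 without Ly6C spleen replicate 1. Thbs1, thrombospondin 1, rose in both labels and more in Ly6G (-3.08 ± 0.52, adjusted p = 0.00243). Thbs1 and Fn1 were the 2 passing genes of 24 collagen and matrix genes, both negative, against 15.8% of all genes. The median of that list was -0.04.

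**Figure D5:**
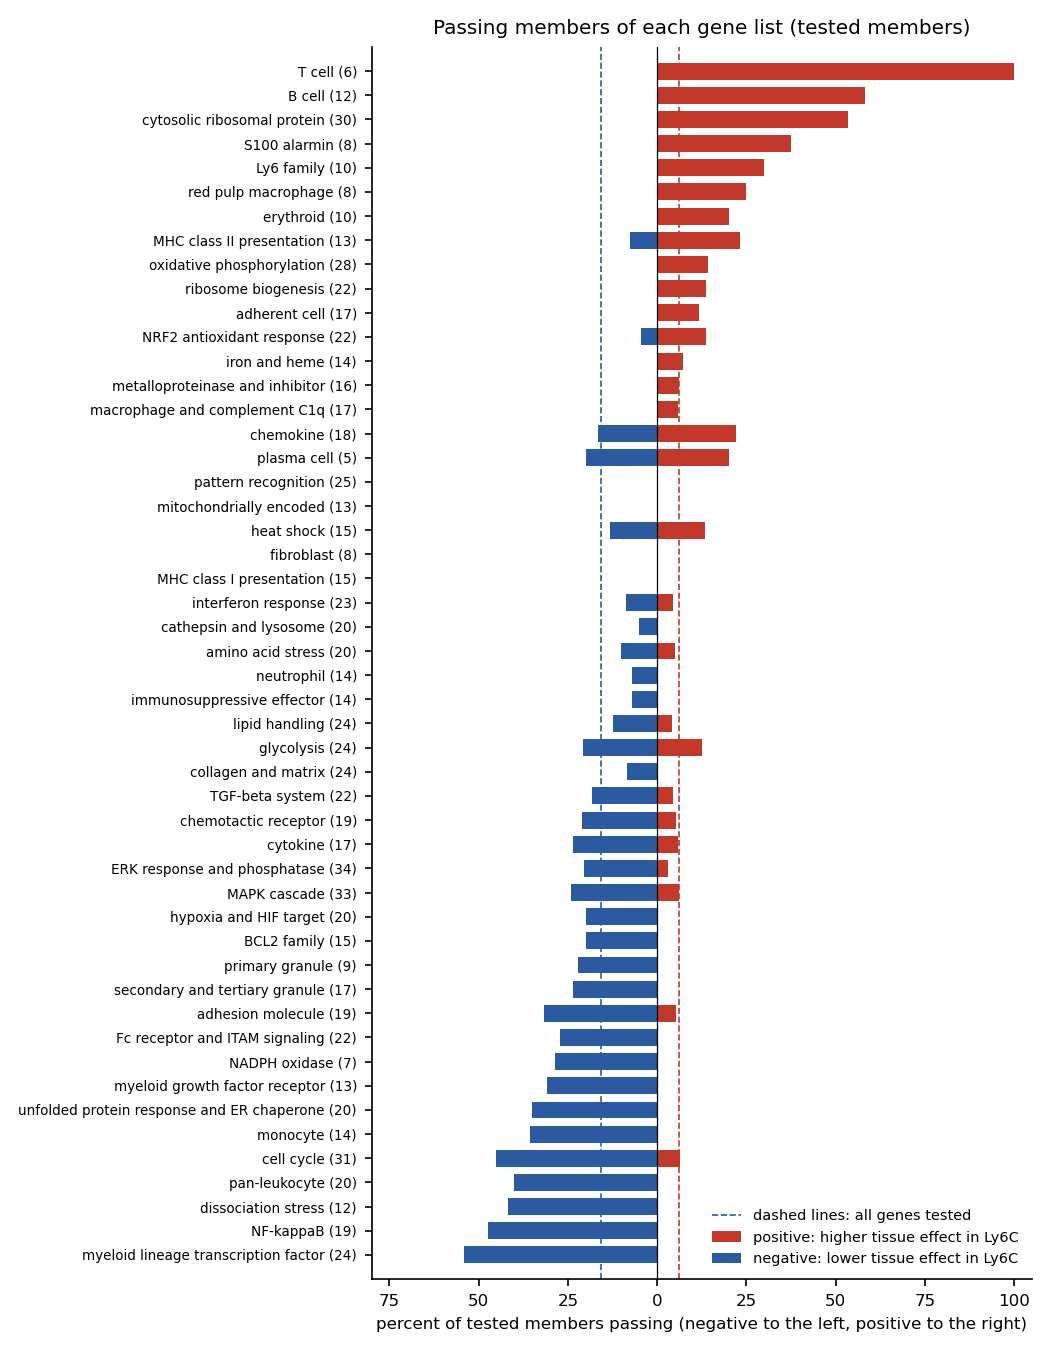
Percent of tested members passing in each list with at least 5 tested genes, negative to the left and positive to the right, with dashed lines at the shares of all genes (15.8% and 6.02%). Lineage factors, NF-kappaB and cell cycle genes extend to the left, and lymphoid markers and ribosomal protein genes to the right.

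Among genes whose tissue effects passed in opposite directions, Cebpa, Nfkbid, S100a6 and Uqcrh are shown with the 250 bases before their transcription start. The windows were taken from RefSeq (build GRCm38.p6), in which 9164 of the 13610 genes matched. Cebpa and Nfkbid fell in Ly6C and rose in Ly6G, S100a6 and Uqcrh did the reverse, and the 4 are shown as examples of each direction chosen after their values were seen. Sequences are written 5′ to 3′ on the strand of the gene, and capitals mark matches to 1 of 6 motifs searched on both strands.
Cebpa (chr7:35119043-35119292, plus strand): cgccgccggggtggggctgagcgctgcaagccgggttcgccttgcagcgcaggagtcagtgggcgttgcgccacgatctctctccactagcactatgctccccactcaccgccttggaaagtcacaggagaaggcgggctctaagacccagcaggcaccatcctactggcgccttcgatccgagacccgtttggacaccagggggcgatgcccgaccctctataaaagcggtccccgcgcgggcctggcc
Nfkbid (chr7:30421481-30421730, plus strand): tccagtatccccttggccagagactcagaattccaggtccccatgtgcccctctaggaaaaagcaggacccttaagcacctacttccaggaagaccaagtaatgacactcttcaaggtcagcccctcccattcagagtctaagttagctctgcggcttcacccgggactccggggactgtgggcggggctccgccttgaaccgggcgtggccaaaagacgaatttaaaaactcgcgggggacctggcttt
S100a6 (chr3:90612644-90612893, plus strand): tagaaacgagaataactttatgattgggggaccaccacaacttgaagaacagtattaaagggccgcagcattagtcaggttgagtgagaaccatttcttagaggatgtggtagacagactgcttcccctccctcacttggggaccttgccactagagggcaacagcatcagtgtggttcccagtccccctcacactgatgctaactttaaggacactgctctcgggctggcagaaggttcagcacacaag
Uqcrh (chr4:116075071-116075320, minus strand): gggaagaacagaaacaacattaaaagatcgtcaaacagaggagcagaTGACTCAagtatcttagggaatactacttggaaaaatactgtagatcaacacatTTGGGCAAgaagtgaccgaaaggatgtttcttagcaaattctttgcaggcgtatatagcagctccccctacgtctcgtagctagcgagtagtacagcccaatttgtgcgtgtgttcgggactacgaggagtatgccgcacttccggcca
The motifs were AP-1 (TGANTCA), C/EBP (TTGCNNAA), PU.1 (GAGGAAG), NF-kappaB, the hypoxia element (ACGTGC) and the cAMP response element (TGACGTCA). Of the 4 windows, that of Uqcrh held matches, an AP-1 motif starting at -203 and a C/EBP motif starting at -149. Over all windows these 2 motifs were present in 4.3% and 7.4%.

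The motif content of promoter windows is given for scale-stable genes beside all genes. C/EBP motifs were in 11.7% of 128 positive and 6.46% of 913 negative windows, against 7.4% of all. AP-1 motifs were in 6.25% and 3.72%, against 4.3%, and PU.1 motifs in 9.38% and 11.2%, against 11.1%. NF-kappaB motifs were in 0.781% and 1.42%, against 1.18%, the hypoxia element in 5.47% and 7.23%, against 6.69%, and the cAMP response element in 2.34% and 3.07%, against 2.62%. The median GC content of the window was 55.2% for positive, 63.2% for negative and 60.0% for all genes, with 9, 19 and 16 CpG dinucleotides. These shares are descriptions with no test.

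Among the 12 highest scale-stable interactions, Ly6a, Igfbp6, Rhoc and Mt2 were lowest in Ly6C spleen and higher in each tumor library than in any spleen library. Cd79a, Cd79b, Ly6d, H2-Aa and Clec4a4 had their highest mean in Ly6G spleen and lower means in both tumor groups than in either spleen group. S100a6 and Ubb were also highest in Ly6G spleen. Ly6a, which encodes the surface antigen Sca-1 (chr15:74994877-74998031, minus strand), was at 2.42, 5.57 and 7.26 FPKM in Ly6C spleen and at 204, 121 and 275 FPKM in Ly6C tumor. It was at 24.9, 27.4 and 24.3 FPKM in Ly6G spleen and at 151, 68.4 and 91.2 FPKM in Ly6G tumor. The spleen groups did not overlap, the tumor groups did, and the interaction was 3.16 ± 0.53 (adjusted p = 0.0024), the highest of the named genes. Igfbp6, a secreted binding protein for insulin-like growth factor 2, was at 3.63, 3.61 and 3.46 FPKM in Ly6C spleen, 145, 115 and 107 in Ly6C tumor, 21.4, 23.9 and 50.8 in Ly6G spleen and 95.3, 120 and 90.2 in Ly6G tumor (3.01 ± 0.37, adjusted p = 0.00067). Rhoc, a small GTPase of cell movement, showed the same layout, with 2.78 to 5.51 FPKM in Ly6C spleen, 16 to 24.0 in Ly6G spleen and 88.8 to 131 over both tumor groups (2.36 ± 0.28, adjusted p = 0.000619). Mt2, a metallothionein that binds zinc, rose by 6.83 in Ly6C and by 4.45 in Ly6G (2.38 ± 0.43, adjusted p = 0.00344), with 1.01 to 1.92 FPKM in Ly6C spleen and 5.85 to 13.5 FPKM in Ly6G spleen. In each of these 4 genes the label difference passed in spleen and did not pass in tumor. Of 17 genes of adherent cells, 14 rose in each label, against 46.2% of all genes in Ly6C and 51.5% in Ly6G. A positive interaction was found for 2, Cnn3 (1.13) and Anxa2 (0.92), against 6.02% of all genes.

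Small calcium-binding S100 proteins were divided. Of 8 tested, 3 passed in limma, all positive, against 6.02% of all genes. Still, the list's median was -0.52 (0.59 on the pan-leukocyte scale), and 2 members reached an unadjusted p under 0.05 as negative. On the TPM and quantile scales 2 were positive and 2 negative. Without Ly6C spleen replicate 3, 2 members were negative, and without Ly6G spleen replicate 3, 1 was. S100a6, calcyclin, was at 180.0, 110.0 and 130.0 FPKM in Ly6C spleen and at 217, 281 and 249 FPKM in Ly6C tumor. It was at 530.0, 420.0 and 412 FPKM in Ly6G spleen and at 164, 221 and 143 FPKM in Ly6G tumor. S100a6 rose by 0.85 in Ly6C and fell by 1.37 in Ly6G, with no overlap between tissues in either label, and the interaction was 2.22 ± 0.30 (adjusted p = 0.000978). S100a11 (1.19) and S100a13 (1.06) passed as well. The gene of polyubiquitin, Ubb (1.89), the membrane-trafficking gene Arfip1 (1.49) and the adhesion gene Icam4 (1.31) also rose in Ly6C and fell in Ly6G. In the reverse direction stood F10, coagulation factor X, which fell by 1.10 in Ly6C and rose by 2.62 in Ly6G (-3.72 ± 0.46, adjusted p = 0.00067), and Cd93, a receptor of early progenitors and endothelium (-2.28).

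The genes of the cytosolic ribosome that passed had higher tissue effects in Ly6C on each scale tried. Of 30 ribosomal protein genes in the list, 16 passed in limma, all positive, against 6.02% of all genes positive, with a median of 0.81. All 30 rose in Ly6C, against 46.2% of all genes, and 28 rose in Ly6G, against 51.5%. With median-of-ratios factors 28 were positive, against 9 after quantile normalization, 5 on the TPM scale and 28 on the pan-leukocyte scale, and the median stayed between 0.37 and 1.82. Leaving out 1 library gave 7 positive genes (without Ly6C tumor replicate 2 or Ly6G tumor replicate 3) to 25 (without Ly6C spleen replicate 2). The count was 8 without Ly6C tumor replicate 3, 9 without Ly6C spleen replicate 1 or 3, and 10 without Ly6C tumor replicate 1 or Ly6G spleen replicate 3. Over all 82 Rpl and Rps genes tested, 51 passed, all positive. Rps27, a small-subunit protein, was at 26.4, 27.8 and 22.2 FPKM in Ly6C spleen, 86.7, 101 and 104 in Ly6C tumor, 54.0, 49.1 and 71.1 in Ly6G spleen and 75.9, 75.4 and 60.1 in Ly6G tumor. Ly6C did not overlap between tissues and Ly6G did, and the interaction was 1.61 ± 0.23 (adjusted p = 0.00113). Ribosomal protein genes have many processed pseudogenes, to which reads can be assigned wrongly.

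The nuclear genes of mitochondrial respiration that passed were positive too. Of 28 genes in the list, 4 passed in limma, all positive, against 6.02% of all genes (median 0.43), with 1 on the TPM scale, 19 by median-of-ratios and 18 on the pan-leukocyte scale. The count was 12 without Ly6C spleen replicate 2 and 2 without Ly6C spleen replicate 1, Ly6C spleen replicate 3, Ly6C tumor replicate 2, Ly6C tumor replicate 3, Ly6G spleen replicate 1 or Ly6G tumor replicate 1. Of 85 genes with Nduf, Uqcr, Cox and Atp5 names, 28 passed, all positive. Uqcrh, the hinge subunit of complex III, was at 28.4, 29.1 and 21.3 FPKM in Ly6C spleen and at 40.0, 43.9 and 38.7 FPKM in Ly6C tumor. It was at 47.2, 45.4 and 63.6 FPKM in Ly6G spleen and at 28.6, 33.6 and 28.1 FPKM in Ly6G tumor. Both labels were free of overlap between tissues and moved in opposite directions (1.39 ± 0.22, adjusted p = 0.00206). Ndufa1, a small complex I subunit, had an interaction of 1.16 and Txn1, thioredoxin, of 1.24, the latter without scale stability.

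Gene length moved with the interaction. Between the shortest and the longest of 5 equal groups of genes, with median exon lengths of 654 and 9068 bases, the positive share fell from 13.3% to 0.919% and the negative share rose from 7.39% to 25.3%. Median exon length was 1248 bases in scale-stable positive genes, 5327 bases in scale-stable negative genes and 3682 bases over all genes. Spearman's rank correlation across 13602 genes was -0.28 with exon length and -0.23 with GC content, as a description, since genes are not independent and share the 12 libraries. Ribosomal protein genes of the list had a median exon length of 1752 bases and lineage factors of 3628 bases. After the trend of each library on length and GC content was removed, 1471 genes (10.8%) were positive and 1237 (9.09%) negative. Ribosomal protein genes then had 21 positive of 30, lineage factors 8 negative of 24, NF-kappaB genes 4 negative and 1 positive of 19, and TGF-beta genes 2 negative and 4 positive of 22. Of the scale-stable genes, 253 of 267 positive and 835 of 1245 negative passed with the same sign after this removal. The part of RNA length or library handling in the results was not tested.

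The B cell and T cell markers that passed had positive interactions, with higher levels in Ly6G spleen than in Ly6C spleen and lower levels in both tumor groups. All 12 B cell markers were higher in Ly6G than in Ly6C in spleen, against 8.59% of all genes. Of these 12 markers, 7 had a positive interaction, against 6.02% of all genes (median 1.25, and 1.18 on the pan-leukocyte scale). They summed to 270.0 to 415 FPKM in Ly6C spleen, 801 to 1380.0 in Ly6G spleen and 5.39 to 8.77 over both tumor groups. Cd79b, a signaling chain of the B cell receptor, was at 19.6, 33.2 and 27.2 FPKM in Ly6C spleen and 71.2, 85.2 and 153 FPKM in Ly6G spleen, and at 0.0526 to 0.236 FPKM in tumor (1.98 ± 0.35, adjusted p = 0.00331). Ly6d, a B cell progenitor antigen, followed it (2.03 ± 0.39, adjusted p = 0.00473). All 6 tested T cell markers were positive and higher in Ly6G spleen (median 1.12), against 6.02% and 8.59% of all genes. Cd3d was at 1.38 to 1.45 FPKM in Ly6C spleen, 4.03 to 6.35 in Ly6G spleen and at most 0.149 in tumor. On the pan-leukocyte scale 2 of the 6 passed. Erythroid genes were higher in Ly6G spleen for 10 of 10 tested, against 8.59% of all genes. Of these 10 genes, 2 had a positive interaction, against 6.02% of all genes. The carbonic anhydrase gene Car2 (1.45) was 1 of them, and the count was 5 without Ly6G spleen replicate 2. The sum of the erythroid genes was 329 to 1190.0 FPKM in Ly6C spleen and 1510.0 to 4240.0 FPKM in Ly6G spleen. Of 8 red pulp macrophage genes, 6 were higher in Ly6G spleen and 2 were positive, against 8.59% and 6.02% of all genes. The 2 were Vcam1 (1.77) and Spic (1.08), and Spic was not scale-stable. The red pulp count was 3 without Ly6C spleen replicate 2 or Ly6G spleen replicate 2, 2 without Ly6C spleen replicate 1, and 1 without any 1 of the other libraries. MHC class II genes gave 3 positive and 1 negative of 13, against 6.02% and 15.8% of all genes. H2-Aa, a class II alpha chain, was at 50 to 79.5 FPKM in Ly6C spleen, 165 to 330.0 in Ly6G spleen, 3.98 to 15.4 in Ly6C tumor and 3.07 to 10.5 in Ly6G tumor (2.29 ± 0.66, adjusted p = 0.0288), and it passed in 5 of 12 fits without 1 library. The negative gene was Cd80, a costimulatory ligand (-0.98), which rose in Ly6G from 1.9 to 2.07 FPKM to 3.85 to 6.75 FPKM and stayed at 1.1 to 1.67 FPKM in both Ly6C groups.

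Arg1, Nos2 and Cd274, genes known for suppressor function, did not pass. Arg1, arginase 1, was at 0 to 0.144 FPKM in spleen, 16.9 to 38.6 in Ly6C tumor and 5.26 to 23.8 in Ly6G tumor, groups that overlapped (0.95 ± 0.58, adjusted p = 0.264). Nos2, inducible nitric oxide synthase, rose in both labels (-0.85 ± 0.56, adjusted p = 0.302). Cd274, the checkpoint ligand PD-L1, was at 6.7 to 10.4 FPKM in Ly6C tumor and 24.1 to 35.8 FPKM in Ly6G tumor, and 1.38 to 3.11 and 2.96 to 6.64 FPKM in the spleen groups (-1.06 ± 0.39, adjusted p = 0.0707). Of 14 suppressor effector genes tested, 1 was negative, Tgfb1, and 0 were positive, against 15.8% and 6.02% of all genes. Without Ly6C tumor replicate 2 none was negative in limma, and without Ly6C tumor replicate 3, 3 were. Cxcr2 (-0.49, adjusted p = 0.486), Ccr2 (-1.03, adjusted p = 0.275), Ly6g (0.51, adjusted p = 0.257), Ly6c2 (-0.15, adjusted p = 0.699) and Krt8 (0.58, adjusted p = 0.119) did not pass either. On the pan-leukocyte scale Arg1, Ly6g and Krt8 passed as positive. Among 25 pattern recognition genes, 15 MHC class I genes, 13 mitochondrially encoded genes and 8 fibroblast genes, 0 passed in limma on the deposited scale. Over all genes tested, 21.8% passed. At an unadjusted p under 0.05 these lists held 6, 2, 0 and 0 genes. A p above the threshold does not show that tissue effects were equal.

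A few extreme values rest on entries that share sequence. The lowest interaction of the named genes belonged to an entry of Hgs (chr11:120467635-120483979, plus strand), an endosomal sorting gene, at -5.98 ± 0.70. A further entry of Hgs over the same locus had an interaction of 1.63, and the sum of both was 25.7 to 32.5 FPKM in Ly6C and 18.4 to 29.0 FPKM in Ly6G. The division of reads between the entries is uncertain, so the value is not read as a change of the gene. The entries of Mir6996 (-2.89) and Snord14d (2.86) lie within host genes and are shorter than 90 bases, and their values are uncertain for the same reason. The same holds in part for Ubb, Mt2 and Clec4a4 (2.29), which have close relatives.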

How the data were processed

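The authors deposited 1 table of FPKM values for 12 libraries of total RNA (RNeasy mini kit, paired-end Illumina sequencing, per the labels' protocols). Reads were aligned with HISAT2 2.0.5 and counted with featureCounts 1.5.0-p3 on GRCm38, per the submitters' processing notes; the tool that made the FPKM values is not given in the sources used here. Counts could not be recovered. Low values were multiplied by exon length and set against a range of trial sizes for 1 read. With the best-fitting size, 33.6% to 37.1% of low values per library were whole multiples (tolerance 0.05). The read depth is therefore unknown, and no interval for counting error is given. Summed FPKM was 331681 to 449309 per library, and 10379 to 12337 genes reached 1 FPKM. The 570 entries without an Ensembl identifier, 0.463% to 1.04% of FPKM, were left out.

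Values were taken as log2(FPKM + 1), with a pseudocount of 1, which understates changes of low genes. limma 3.58.1 (R 4.3.3) was fitted on the means of the 4 groups with a variance trend (8 residual and 3.4 prior degrees of freedom). Tests were two-sided, Benjamini-Hochberg adjusted over 13610 genes and called under 0.05. The script was tested on simulated data. The 26 alternatives cover pseudocounts, filters, scalings, weights, the replicate block, left-out libraries and, added after seeing the data, removal of a loess trend on exon length and GC content. Replicate numbers were not used to pair the samples, since no label ties a number to an animal. Deviations of same-numbered libraries correlated between -0.36 and 0.279, with 5 of 18 pairs above 0.1. With 3 libraries per group these values cannot decide whether same-numbered libraries came from the same animal.

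The comparison and the 38 functional and 19 marker lists were chosen with earlier results of these data known. Named genes were the 12 highest and the 12 lowest scale-stable values, the 6 opposite genes per direction with the largest smaller tissue effect, the extreme passing member of each list in each direction, and 17 fixed genes; predicted genes and receptor segments were left out. Other list members were chosen as examples after their values were seen. A few genes covered by these rules are not reported here.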

Additional observations from a re-analysis of the deposited data

Results flagged for a closer look

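The tissue effect differed between Ly6C and Ly6G libraries, by the interaction test in limma (adjusted p under 0.05), for 2972 genes. For 245 of them both tissue effects passed in opposite directions.

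Among named genes that fell in Ly6C and rose in Ly6G, the interaction was -5.98 for 1 of the 2 entries of Hgs, -3.72 for F10, -2.91 for Nr4a1, -2.60 for Cebpa, -2.46 for Nfkbid and -2.28 for Cd93. F10, Nr4a1 and Nfkbid also passed as negative on the pan-leukocyte scale, and Cebpa and Cd93 did not pass there. The Hgs entry passed there too, but the division of reads between the 2 entries is uncertain. Its value is not read as a change of the gene. Among named genes that rose in Ly6C and fell in Ly6G, it was 1.14 for Tctex1d2, 1.31 for Icam4, 1.39 for Uqcrh, 1.49 for Arfip1, 1.89 for Ubb and 2.22 for S100a6.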

How the results depend on the processing

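The number of passing genes, 2972 of 13610 as deposited, was 4795 on the TPM scale and 1417 without the libraries of highest mitochondrial share (replicate 3 of each tumor group). Leaving out 1 library gave 2095 (without Ly6C tumor replicate 3) to 3124 (without Ly6C spleen replicate 2). The 820 positive genes became 275 on the TPM scale, 473 there with S100a8 and S100a9 removed, 1699 with median-of-ratios factors, 1607 after quantile normalization, 2027 on the pan-leukocyte scale, 1433 with array weights, 290 without the 2 high-mitochondrial libraries and 1471 after removal of the length and GC trend. They ranged from 507 (without Ly6C tumor replicate 3) to 1095 (without Ly6C spleen replicate 2). The 2152 negative genes became 4520, 3680, 1441, 1488, 52, 2952, 1127 and 1237 under these settings, and 1588 to 2100 without 1 library. The 245 genes with opposite effects became 534 on the TPM scale, 402 there with S100a8 and S100a9 removed, 6 on the pan-leukocyte scale, 147 without the 2 libraries and 146 after trend removal. The median interaction changed sign to 0.04, 0.06, 0.86 and 0.05 under median-of-ratios, quantile, pan-leukocyte and trend-removed values. The cause of these changes was not tested.

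Of 98 named genes, 55 kept their direction and side of the threshold on the pan-leukocyte scale, 27 kept their direction and no longer passed, 3 newly passed, and 13 turned from negative to positive without passing there. Of these 13, 3 had passed as deposited, Bag3 (0.16), Ppard (0.12) and Keap1 (0.35), and the other 10 had not. Under the other alternatives 3 named genes changed direction, none of which passed under either setting. Without a filter, where 30674 genes were tested, 20 named genes no longer passed, and without the 2 libraries 24 no longer passed. The cause of these losses was not tested. With the replicate block, 2729 genes passed, and 4 named genes no longer passed. Whether replicate numbers pair the samples is not known. Other pseudocounts gave 2958 (0.1) and 2895 (5) genes.

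Limits are the 3 libraries per group, the unknown depth, the lower leukocyte sums and keratin RNA of tumor libraries, and the absence of a scale on which cell content of spleen and tumor is known to be equal. Each direction given for a list is relative to the scale named with it.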
